A study of Mus musculus with 5 samples.

Results

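The nuclear genome encodes most subunits of the mitochondrial respiratory chain and ATP synthase. Genes were taken by name from the 4 count tables: Nduf genes for complex I, Sdh genes for complex II, Uqc genes and Cyc1 for complex III, Cox4 to Cox8 genes for complex IV, Atp5 genes for complex V, and Cycs, which encodes cytochrome c. Names of pseudogenes were left out. The rule found 76 of 10288 counted genes: 34 for complex I, 3 for complex II, 11 for complex III, 11 for complex IV, 16 for complex V and Cycs. The names Uqcc1 and Uqcc2 came in with the rule although they encode assembly factors of complex III and not subunits. Ndufa4 is counted with complex I by its name, although its protein is now placed in complex IV.

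Mice with autoimmune colitis were the source of CD4 T cells, which were sorted from colon and lymph node, and sequencing read the 3' end of poly(A) RNA. Each tissue gave a control library and a library after treatment with 980 nm light, so there were 4 libraries and 1 library per group. Light sessions lasted 5 minutes and were repeated every 2 days, with a laser of 1.22 W run at 80% duty and a spot of 4 cm2. Strain, age, number of animals, how colitis was induced and what the controls received are not given in the sources used here.

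Complex I passes electrons from NADH, and complex II from succinate, to ubiquinone. Complex III passes them on to cytochrome c, and complex IV from cytochrome c to oxygen. Complexes I, III and IV pump protons, and complex V uses the return flow of protons to make ATP. The mitochondrial genome encodes a few core subunits of complexes I, III, IV and V, so these complexes are built from products of both genomes. CD4 T cells raise both glycolysis and respiration when they are activated. Complex IV is commonly named as an absorber of red and near-infrared light in work on light treatment.

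The summed counts were 435847 without and 1959296 with light in the colon, and 971227 without and 1068864 with light in the lymph node. Each table has 379 to 384 columns with 7-base barcodes, and its columns count overlapping sets of the same molecules. Dividing each sum by the mean number of columns that hold a molecule, weighted by size, gave 6180, 39283, 11500 and 21214 independent counts, called molecule-equivalents here. Levels below are counts scaled to a common library total of 1000000 (CPM), without division by transcript length because reads start at the 3' end, so they are compared between libraries and not between genes. Ratios are log2 ratios of CPM with exact 95% intervals that cover counting error only, and no p-values are given because each group has 1 library. Where 4 values follow one another, the colon comes first and then the lymph node, each without and then with light. At most 5 barcodes of the colon control were found in another library, and the others shared 373 or 374 with one another. Its T-cell markers summed to 429 CPM, with Cd2, Cd5, Trac and Trbc1 at 0 and the lines of Cd3d, Cd3e, Cd3g and Cd4 left out because they repeat those of the lymph node control table. In the colon after light and in the lymph node without and with light, all 12 T-cell markers in the tables were counted and summed to 3315, 10513 and 8944 CPM. Of markers of other cells, 0 of 10 epithelial ones were in the tables, those of fibroblasts and vessels summed to 73.8 and 108 CPM in the colon and 0 in the lymph node, Igkc and Ighm of B cells to 355, 20.4, 324 and 34.6 CPM and Cd8b1 of CD8 T cells to 15.8 CPM in the colon after light alone.

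Promoters of 64 members were found by symbol in RefSeq (GRCm38.p6, 250 bases before to 50 bases after each gene's start). Motifs of 3 factors known to act on respiratory genes were searched on both strands: the NRF1 core (CGCANGCG), the ETS core (CCGGAAGT), which the GABP factor reads, and the YY1 core (AAGATGGCG). Of the members, 25 of 64 (39.1%) held the NRF1 core, against 8.21% of all 32851 promoters and 19.2% of the 7404 genes that had both a count and a promoter. For the YY1 core the count was 7 of 64 (10.9%), against 1.40% and 3.53%. The ETS core was in 5 of 64 (7.81%), against 3.89% and 9.48%. The 64 members have 69 promoters, and a member or counted gene held a core if any of its promoters did. The shares of all promoters are per single promoter, so the shares of counted genes are the like measure. Different motifs overlapped in 0 of the members. Median GC content was 58.3% in the members' promoters and 52.7% in all promoters.

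The promoters of 5 members described below are shown from 100 bases before the gene's start to 10 bases from it on, 5' to 3' on the gene's strand, with NRF1 and ETS cores in capitals. For Atp5c1 the window is that of the downstream of its starts in RefSeq, because that of the upstream start held no core. From the upstream start, the first core shown lies 27 bases into the gene. Cycs and Atp5c1 are shown because, by total counts, they were lower in the colon light than in the lymph node light library and hold NRF1 cores. The other members with an interval below 0 there were Atp5pb, Ndufa13 and Ndufb8, without any of the motifs, and Cox4i1 and Ndufb9, without a promoter found. Cox8a is shown as the member with the most molecule-equivalents, Uqcrh as the member with the most in complex III and Atp5h as that in complex V, each with an ETS core near its start. All 5 genes lie on the minus strand, at chr6:50566560-50566669 for Cycs, chr2:10080423-10080532 for Atp5c1, chr19:7217607-7217716 for Cox8a, chr4:116075061-116075170 for Uqcrh and chr11:115419910-115420019 for Atp5h.
Cycs: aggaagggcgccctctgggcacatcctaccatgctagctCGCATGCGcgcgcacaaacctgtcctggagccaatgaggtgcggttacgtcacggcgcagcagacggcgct
Atp5c1: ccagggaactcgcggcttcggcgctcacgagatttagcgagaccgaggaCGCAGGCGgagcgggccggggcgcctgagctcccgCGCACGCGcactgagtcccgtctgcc
Cox8a: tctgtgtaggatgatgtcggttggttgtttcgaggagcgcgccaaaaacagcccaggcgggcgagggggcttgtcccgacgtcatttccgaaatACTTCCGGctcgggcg
Uqcrh: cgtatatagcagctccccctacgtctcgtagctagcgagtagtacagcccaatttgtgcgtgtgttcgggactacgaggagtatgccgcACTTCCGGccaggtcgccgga
Atp5h: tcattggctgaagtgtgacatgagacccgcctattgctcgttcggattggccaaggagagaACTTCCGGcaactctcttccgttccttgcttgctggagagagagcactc
A match is a description of these letters and not a site of binding. In the comparisons below, the 25 members with an NRF1 core and the 39 with a promoter but no NRF1 core had overlapping intervals. Their summed log2 ratios were -0.09 (-0.54 to 0.36) and -0.26 (-0.59 to 0.07) in the lymph node after light, and -0.86 (-1.25 to -0.49) and -0.61 (-0.89 to -0.33) in the colon against the lymph node after light. With the libraries scaled by the median ratio of all genes, both intervals of the last pair included 0 (-0.32, -0.71 to 0.055, and -0.070, -0.35 to 0.21).

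Respiratory chain transcripts made up 0.304% of counts without and 1.07% with light in the colon, and 1.97% without and 1.72% with light in the lymph node. The lymph node libraries were thus the higher ones, the colon light library lay between, and the colon control library was the lowest, with intervals that did not overlap except between the lymph node libraries. In pooled counts, fewer T cells and less of an RNA per T cell cannot be told apart. In CPM the sums were 3044 (1828 to 4760), 10657 (9665 to 11722), 19690 (17230 to 22398) and 17173 (15468 to 19012). A count was found for 16, 70, 62 and 70 of the 76 members in the same order, and for 2361, 6734, 3635 and 5765 of all 10288 genes. The limit that a count of 0 allows (a floor of 3 molecule-equivalents) is 485, 76.4, 261 and 141 CPM, and 0, 48, 25 and 44 members lay above it. Single members rest on few molecules: among those whose column patterns could be resolved, the median was 1, 5, 2 and 5 molecules. The sums over each complex carry most of what these libraries can show, and the plot of complexes by library gives them with their intervals.

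Complex I is the NADH dehydrogenase. Its 34 nuclear members summed to 1222 CPM (512 to 2453) without and 2875 (2370 to 3456) with light in the colon, and 5562 (4286 to 7098) without and 5140 (4223 to 6197) with light in the lymph node. The lymph node libraries overlapped each other, and both lay above the colon light library. Most of the signal came from the 28 members outside the catalytic core, which are accessory subunits of complex I except for Ndufa4. They summed to 2780 CPM in the colon after light and 5063 and 4800 CPM in the lymph node without and with it.

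Ndufa3, an accessory subunit, was at 113 CPM without and 250 with light in the colon, and 157 without and 525 with light in the lymph node. Ndufa6, an accessory subunit of the LYR protein family, was at 154, 139, 736 and 321 CPM in the same order. The first was thus highest in the lymph node after light and the second in the lymph node control, but their intervals for light against control both included 0 (1.57, -0.53 to 5.20, and -1.13, -2.89 to 0.44). Ndufb8, a membrane-arm subunit whose protein is often used to monitor assembled complex I, was at 64.6, 102, 208 and 381 CPM. Ndufb9, another membrane-arm subunit, was at 205, 9.70, 234 and 254 CPM, lowest in the colon light library. Ndufa13, also known as GRIM-19, was listed at 0 in both colon libraries and at 376 and 301 CPM in the lymph node control and light libraries. Ndufb11 had 473 CPM in the colon control, the most of any member there, and 117, 52.5 and 143 CPM in the others. It was chosen for mention after its values were seen, and its level in the colon control is below the floor of 485 CPM.

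Complex II, the succinate dehydrogenase of the citrate cycle, was barely sampled. Its 3 members Sdha, Sdhb and Sdhc summed to 0, 59.7, 213 and 119 CPM, or at most 2.52 molecule-equivalents in any library. No difference was detectable for it at this depth.

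Complex III, the cytochrome bc1 complex, summed to 512 CPM (112 to 1458), 1092 (790 to 1471), 1156 (621 to 1965) and 1326 (882 to 1914). Its intervals overlapped among the colon light and both lymph node libraries, unlike those of complexes I, IV and V. Uqcrh, the hinge subunit beside cytochrome c1, was at 390 CPM without and 337 with light in the colon, and 315 without and 470 with light in the lymph node. Its values thus lay between 315 and 470 CPM, and the ratios for light in the lymph node (0.53, -1.27 to 2.82) and for colon against lymph node after light (-0.46, -1.77 to 0.87) had intervals that included 0. The catalytic and core members Cyc1, Uqcrfs1, Uqcrc1 and Uqcrc2 summed to 0, 325, 460 and 211 CPM.

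Complex IV, cytochrome c oxidase, is encoded here by 11 nuclear genes, all of which were counted in the colon light and in both lymph node libraries, and 4 in the colon control. It summed to 636 CPM (171 to 1641), 3602 (3034 to 4245), 6583 (5187 to 8236) and 5185 (4263 to 6246). Cox8a, a small structural subunit, had the most counts of any member, at 291 CPM without and 675 with light in the colon, and 1316 without and 825 with light in the lymph node. Cox7c was at 0, 584, 882 and 637 CPM, but the last 200 bases of its transcript are the same as in Gm10012, which has no count, so its reads could not be placed with certainty. Cox4i1, the subunit through which ATP regulates the enzyme, was at 208, 300, 804 and 727 CPM. All 3 had higher values in both lymph node libraries than in either colon library.

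Cox5a was at 0 CPM without and 326 with light in the colon, and 786 without and 535 with light in the lymph node. Cox5b was at 0, 261, 620 and 315 CPM. Cox7a2 was at 87.6, 303, 989.5 and 602 CPM. These 3 nuclear subunits were again highest in the lymph node control, as were Cox8a, Cox7c and Cox4i1, with intervals for light against control that included 0 for each. Cox7b was the exception among the complex IV members named here, with 50.7, 399, 296 and 582 CPM and its highest value in the lymph node light library.

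Complex V, the ATP synthase, summed to 673 CPM (190 to 1694), 2946 (2434 to 3533), 5935 (4614 to 7515) and 4982 (4079 to 6024). Its catalytic F1 head (Atp5a1, Atp5b, Atp5c1, Atp5d and Atp5e) summed to 233, 1025, 1060 and 1735 CPM, highest in the lymph node light library. The peripheral stalk that holds the head still (Atp5h, Atp5j and Atp5pb) summed to 318, 696, 2461 and 1459 CPM, highest in the lymph node control. The difference between their light ratios in the lymph node was 1.44 (0.26 to 2.61), which does not depend on how the libraries are scaled, but this pair was set side by side after its values were seen. Of the head, Atp5c1 went from 181 to 712 CPM after light, and the difference was not computed without it. Atp5b (296 to 437 CPM) and Atp5e (76.2 to 212) also rose, while Atp5a1 (52.5 to 44.9) and Atp5d (454 to 328) fell.

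Within the head, Atp5c1, the gamma subunit that turns inside it, was at 233 CPM without and 268 with light in the colon, and 181 without and 712 with light in the lymph node. Its light ratio in the lymph node was 1.81 (-0.10 to 5.06), and the interval lay above 0 when the libraries were scaled by the median ratio of genes instead of by total counts. Atp5d, the delta subunit of the head, was at 0, 211, 454 and 328 CPM. In the stalk, Atp5h was at 318, 364, 887 and 509 CPM. Atp5j was at 0, 189, 859 and 480 CPM, and Atp5pb at 0, 142, 716 and 470 CPM. All 3 stalk members were highest in the lymph node control. Among the small membrane subunits, Atp5j2 was at 0, 307, 753 and 249 CPM and Atp5mpl at 122, 299, 314 and 318 CPM.

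Cycs, the carrier between complexes III and IV, was at 0 CPM without and 82.2 with light in the colon, and 241 without and 421 with light in the lymph node. It was higher in the lymph node than in the colon after light by total counts, and its lymph node libraries did not differ beyond counting error (0.73, -1.25 to 3.45). The interval of its 0 in the colon control reaches up to 597 CPM.

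**Figure D1:**
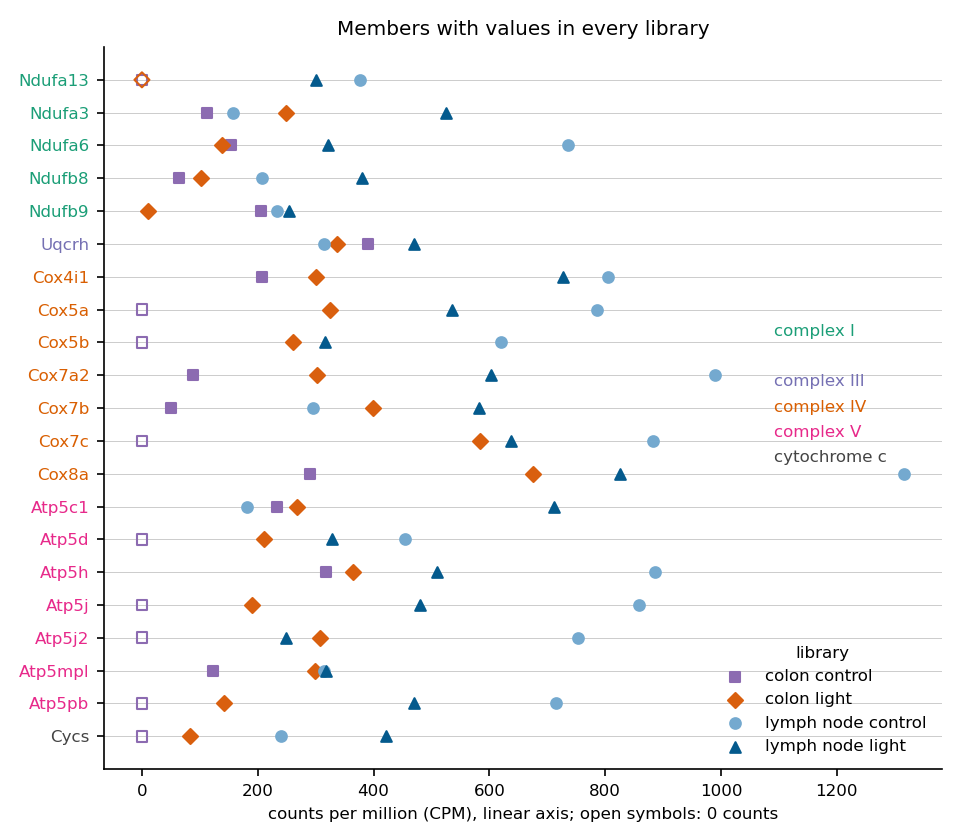
CPM (linear axis) of the members that reach 20 molecule-equivalents in the 4 libraries together, or with an interval that left out 0 in colon against lymph node after light, coloured by complex. Open symbols are 0 counts, and most members have a lymph node library as their highest value, Cox8a at 1316 CPM in the lymph node control among them.

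The lymph node libraries ask what 980 nm light treatment did to respiratory chain transcripts in lymph node CD4 T cells. Nuclear-encoded subunits summed to a log2 ratio of light to control of -0.20 (-0.44 to 0.05) by total counts, and to 0.28 (0.04 to 0.53) when scaled by the median ratio of all genes counted in both libraries, so their direction was not settled. With the median ratio of the 188 genes that had at least 20 molecule-equivalents over both libraries, the members stood at -0.038 (-0.28 to 0.21). Of the genes whose molecules could be resolved, 63.6% in the control and 51.8% in the light library had 1 molecule. By complex the ratios were -0.11 (-0.57 to 0.35) for I, -0.71 (-4.10 to 2.45) for II, 0.19 (-0.79 to 1.26) for III, -0.34 (-0.78 to 0.10) for IV and -0.25 (-0.71 to 0.21) for V. With the median-ratio scaling, complexes I, IV and V stood at 0.37, 0.14 and 0.23, with intervals that included 0. No difference between complexes I, III, IV and V excluded 0 (6 pairs).

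Of the 71 members counted in either lymph node library, 0 had an interval that excluded 0, where 0.203% of all 6884 counted genes lay above 0 and 0.61% below. The filter of 20 molecule-equivalents left 7 members (Atp5h, Atp5j, Cox4i1, Cox5a, Cox7a2, Cox7c and Cox8a), with ratios from -0.80 to -0.14 and a median of -0.65, where the median over all 188 genes past the filter was -0.16. None of the 7 changed 2-fold, where 5.32% of genes rose and 5.85% fell by that much or more. They are the members with the most counts, so their median describes those 7 genes and not the 76.

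**Figure D2:**
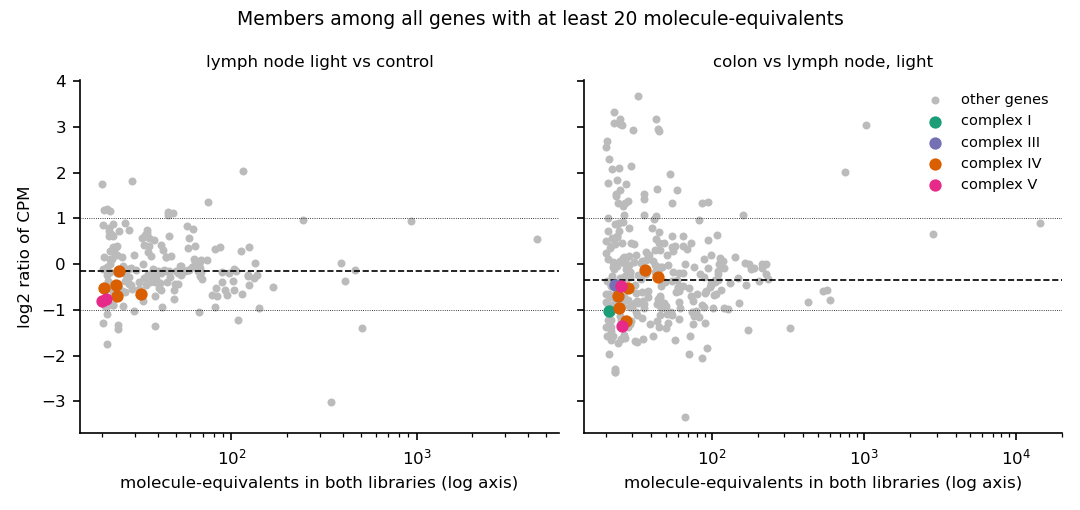
Log2 ratio of CPM against molecule-equivalents (log axis) for every gene with at least 20 of them, in the lymph node after light against control and in the colon against the lymph node after light. Dashed lines are the medians of all genes (-0.16 and -0.34), dotted lines 2-fold, and the coloured members lie below 0 in both when scaled by total counts.

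In the lymph node, with 1 library per group, the subunits encoded by mitochondrial DNA had a higher light ratio than the nuclear ones. Of 13 such genes, the 8 in the tables summed to 627 CPM (166 to 1627) without and 3968 (3371 to 4641) with light in the colon, and 2882 (1986 to 4042) without and 4850 (3960 to 5880) with light in the lymph node. Their light ratio in the lymph node exceeded that of the nuclear members by 0.94 (0.33 to 1.55), a contrast within each library that does not depend on the scaling. Leaving out each of the 8 genes in turn gave differences from 0.85 to 1.07, all with intervals above 0. Leaving out genes does not measure the spread between libraries, and the list was chosen with earlier results of these data known. Expressed as counts of mitochondrial per nuclear origin, the libraries stood at 0.206 (0.0496 to 0.629), 0.372 (0.308 to 0.449), 0.146 (0.0984 to 0.211) and 0.282 (0.225 to 0.352). The lymph node control was thus below the lymph node light library and the colon light library.

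The same contrast was taken within each complex with both kinds of subunit in the tables. In complex I, 6 mitochondrial genes had 0.377 (0.225 to 0.610) counts per nuclear count in the lymph node control and 0.714 (0.526 to 0.963) after light. Among them, mt-Nd1 was at 493 CPM without and 1403 with light in the colon, and 1290 without and 2232 with light in the lymph node, and mt-Nd5 at 0, 368, 227 and 648 CPM. The lymph node light ratios of mt-Nd1 and mt-Nd5 were 0.78 and 1.40. Those of mt-Nd2, mt-Nd3 and mt-Nd4 were 0.12, 0.61 and 0.42, and that of mt-Nd6, counted after light alone, was 1.17. By total counts, 0 of the 8 mitochondrial genes had an interval that excluded 0 in this comparison. The difference of the light ratios within complex I was 0.91 (0.12 to 1.70). In complex IV it was 1.53 (-0.06 to 3.12) and rested on mt-Co1 alone, a catalytic subunit, at 134, 1036, 326 and 784 CPM. In complex III it had the other sign, -0.39 (-2.16 to 1.38), from mt-Cytb, the cytochrome b of that complex, at 0, 247, 461 and 399 CPM, whose own light ratio in the lymph node was -0.20 (-1.95 to 1.68). The genes CT010467.1 (45S ribosomal RNA), Gm12374, mt-Rnr1 and mt-Rnr2 (mitochondrial ribosomal RNA) together took 15.0% of counts in the lymph node control and 19.4% after light, with mt-Rnr2 at 1.78% and 3.41%. Their part in the difference was not tested.

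**Figure D3:**
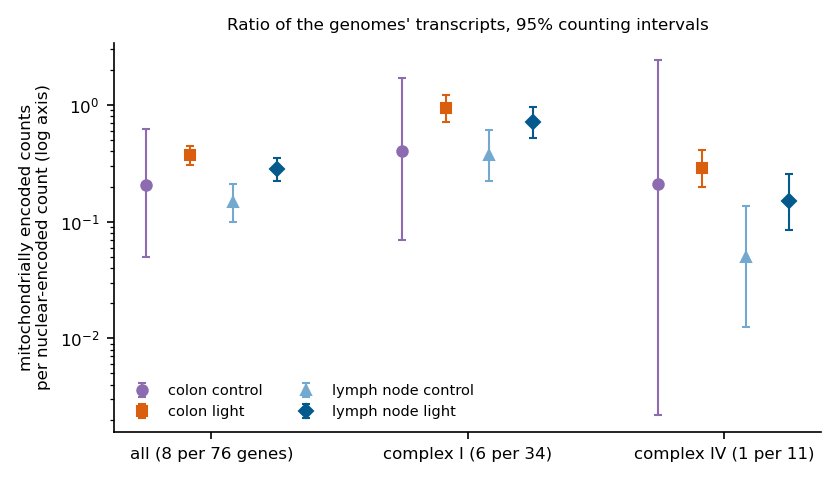
Counts of mitochondrially encoded subunits per count of nuclear-encoded subunits (log axis) for all subunits, complex I and complex IV, with exact 95% intervals. For all subunits the lymph node control lies lowest of the 4 at 0.146 and its interval does not reach those of both light libraries (0.282 and 0.372).

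Other lists of the same pathway gave few values beyond counting error in the lymph node. Exchange carriers for ADP, ATP and phosphate (Slc25 and Vdac genes and Ucp2) stood at -0.26 (-1.07 to 0.57), assembly factors at -0.47 (-1.39 to 0.45), enzymes of the citrate cycle at -0.47 (-1.79 to 0.87), mitochondrial ribosomal proteins at -0.20 (-0.67 to 0.29) and the import machinery at -0.78 (-1.87 to 0.27). In these 5 lists 0 members had an interval that excluded 0, of 6, 27, 7, 57 and 15 counted. Regulators of mitochondrial genes such as Tfam and Nrf1 stood at 2.58 (0.06 to 9.54), from 1 of 8 genes counted in the control and 8 of 8 after light, at 70.0 and 570 CPM. The control value lay below the floor of 261 CPM, and 0 of the 8 regulators had an interval that excluded 0. Over all 10288 genes, 3635 were counted in the control and 5765 after light. Glycolysis, the other source of ATP, was at 3337 CPM in the control and 1941 after light, a ratio of -0.77 (-1.45 to -0.11) by total counts. It was -0.71 (-1.51 to 0.08) without Gapdh, -0.29 (-0.97 to 0.37) with the median ratio of all genes and -0.61 (-1.29 to 0.051) with that of genes past the filter. Cytosolic ribosomal proteins stood at -0.29 (-0.38 to -0.19) by total counts but at 0.20 (0.10 to 0.29) with the median-ratio scaling, and the members differed from them by 0.09 (-0.17 to 0.34). T-cell markers (-0.23, -0.57 to 0.11, by total counts, and 0.25, -0.089 to 0.59, with the median-ratio scaling) and the myeloid markers (0.53, -1.20 to 2.71) had intervals that included 0.

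**Figure D4:**
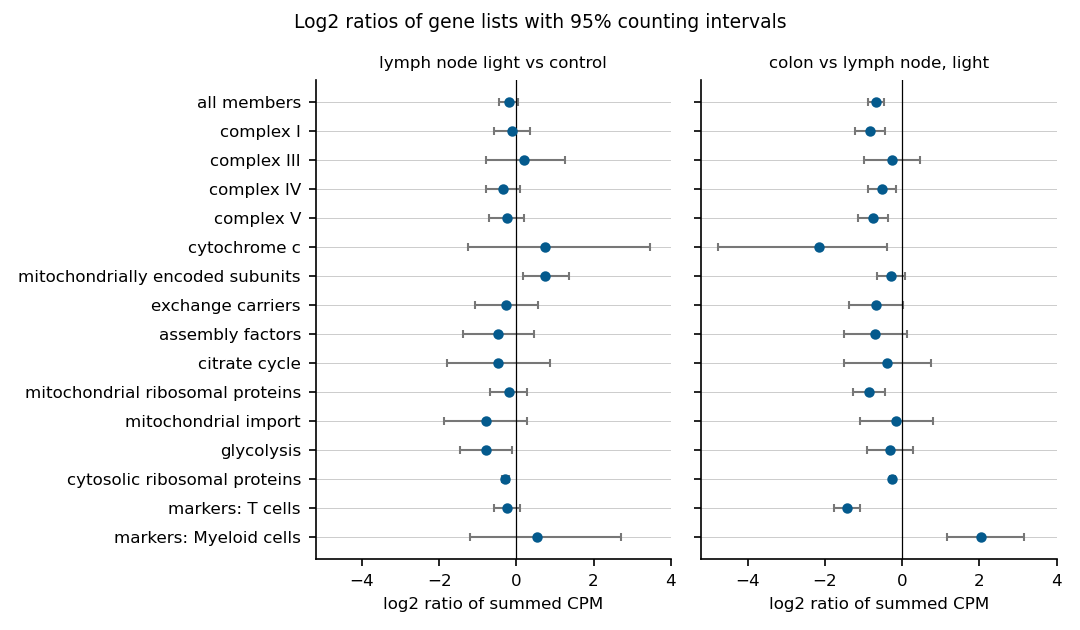
Log2 ratios of summed CPM with exact 95% intervals for the members, each complex with more than 3 members, cytochrome c and the other lists, in the lymph node after light against control and in the colon against the lymph node after light. Libraries are scaled by total counts. On the left the mitochondrially encoded subunits lie above 0 (0.74), and on the right complexes I, IV and V, cytochrome c and T-cell markers lie below 0 and myeloid markers above.

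The light libraries of the tissues compare CD4 T cells of the colon with those of the lymph node under the same treatment. Nuclear-encoded subunits were lower in the colon, by a log2 ratio of -0.69 (-0.89 to -0.48) over all members, and the value kept its sign under the other scalings (-0.14, -0.35 to 0.06, with the median ratio of all genes counted in both, -0.34, -0.55 to -0.13, with that of genes past the filter, and -0.31, -0.52 to -0.11, without the ribosomal RNA genes and Gm12374). Complex I stood at -0.83 (-1.23 to -0.45) and complex V at -0.75 (-1.15 to -0.36) by total counts, and at -0.29 (-0.69 to 0.10) and -0.21 (-0.61 to 0.18) with the median ratio of all genes. Complex IV stood at -0.52 (-0.90 to -0.15) and 0.019 (-0.35 to 0.39) by the same measures, and complex III at -0.28 (-1.0 to 0.46) and 0.27 (-0.46 to 1.0). Complex II, at -0.83 (-4.36 to 2.29), was again too sparse. The members' ratio was also below that of cytosolic ribosomal proteins (difference -0.43, -0.65 to -0.22), a contrast free of the scaling. Those ribosomal proteins stood at -0.25 by total counts, and turned to 0.12 without the ribosomal RNA genes and Gm12374, 0.29 with the median ratio of all genes and 0.092 with that of genes past the filter. The members' difference from mitochondrial ribosomal proteins was 0.16 (-0.29 to 0.61), and those stood at -0.85 (-1.27 to -0.44) by total counts and -0.31 (-0.73 to 0.11) with the median ratio of all genes.

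Of 75 members counted, 7 had an interval below 0 and 0 above, where 2.22% of all 8722 counted genes lay below and 0.665% above. Many of those genes had 1 molecule and could not leave 0. Cycs stood at -2.15 (-4.78 to -0.39), from 421 CPM in the lymph node to 82.2 in the colon. Atp5c1 stood at -1.36 (-2.70 to -0.18), Atp5pb at -1.61 (-3.52 to -0.09) and Cox4i1 at -1.23 (-2.50 to -0.09). In complex I, Ndufb8 stood at -1.74 (-4.08 to -0.01) and Ndufb9 at -3.36 (-17.91 to -0.59), and Ndufa13, with 0 counts in the colon, was at least 3.94-fold lower against the floor of 3 molecule-equivalents. The interval of Ndufa13, which also counts the error of its lymph node value, reached up to -1.25. With the median ratio of all genes the intervals of Ndufa13 and Ndufb9 alone lay below 0, and with that of genes past the filter or without the ribosomal RNA genes and Gm12374 those of Cycs, Ndufa13 and Ndufb9.

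The filter left 10 members, 3 of them at least 2-fold lower (Ndufa3 at -1.02, Cox4i1 and Atp5c1) and 0 at least 2-fold higher, where 19.4% of 304 genes were at least 2-fold lower and 13.5% higher. Their median was -0.61, and that of all genes past the filter -0.34. Among parts of complex V, the c-ring that turns in the membrane stood at -1.20 (-2.65 to 0.10) by total counts, the peripheral stalk at -1.05 (-1.87 to -0.28), the F1 head at -0.75 (-1.44 to -0.07) and the membrane subunits at -0.30 (-1.06 to 0.47), the last of which turned to 0.24 with the median ratio of all genes. Under each of the 3 other scalings the intervals of stalk and head included 0, with the stalk from -0.70 to -0.51 and the head from -0.40 to -0.21. Mitochondrially encoded subunits stood at -0.29 (-0.66 to 0.08), or 0.25 (-0.12 to 0.63) with the median ratio of all genes, a difference from the nuclear members of 0.40 (-0.01 to 0.81).

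Levels of cell markers and of ribosomal RNA also differed between the light libraries. Cell content and RNA per cell cannot be told apart from them. T-cell markers stood at -1.43 (-1.77 to -1.10) in the colon by total counts, lower than the members by 0.74 (0.36 to 1.12). Myeloid markers stood at 2.05 (1.16 to 3.15), at 2147 CPM in the colon and 507 in the lymph node. In the colon 5 of 7 were counted, with Cd68 and S100a8 at 0, while Cd68 was counted in the lymph node. CT010467.1, Gm12374, mt-Rnr1 and mt-Rnr2 took 37.9% of counts in the colon light and 19.4% in the lymph node light library. The part of these in the members' difference was not tested.

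The colon light and control libraries address the same question as the lymph node pair, at the site of disease. The members summed to a ratio of 1.80 (1.14 to 2.56) by total counts, and to 3.14 (2.48 to 3.90) with the median ratio of the 1146 genes counted in both libraries. With that of the 148 of them with at least 20 molecule-equivalents the ratio was -0.052 (-0.71 to 0.71). Its size, and whether it differed from 0, thus rest on the scaling. Of the genes whose molecules could be resolved, 80.1% in the colon control had 1 molecule. By total counts complex I stood at 1.22 (0.18 to 2.52), complex III at 1.06 (-0.52 to 3.35), complex IV at 2.46 (1.10 to 4.42) and complex V at 2.09 (0.76 to 3.98), and with the scaling by the 148 genes complex I turned to -0.63 (-1.67 to 0.67). Only 2 members, Cox7c and Cox8a, passed the filter, and both were at least 2-fold higher, where 75.5% of 208 genes were higher and 14.4% lower, with a median of 2.18. By total counts no member's interval excluded 0 (0 of 70, where 1.04% of 7945 genes lay above 0 and 3.13% below). With the median ratio of all genes those of Atp5e, Atp5j2, Cox5a, Cox7b, Cox7c and Cox8a lay above 0, without the ribosomal RNA genes and Gm12374 that of Cox7c, and with the scaling by the 148 genes that of Ndufb11 lay below. Cytosolic ribosomal proteins stood at 2.29 (2.03 to 2.56), and the members differed from them by -0.49 (-1.19 to 0.22). The colon control rests on 18.8 molecule-equivalents of the members, with T-cell markers as given above and Gm12374 taking 17.7% of its counts. Myeloid markers in it summed to 618 CPM, with Fcer1g, Lyz2 and S100a8 counted. The part of these in the ratio was not tested.

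The control libraries of the tissues gave a ratio of colon to lymph node of -2.67 (-3.46 to -2.01), by total counts and -2.74 (-3.53 to -2.09) with the median ratio of all genes counted in both, but -0.16 (-0.95 to 0.49) with that of the 69 of them with at least 20 molecule-equivalents. None of the members passed the filter, where 67.4% of 89 genes were at least 2-fold lower and 29.2% higher, with a median of -2.18. The intervals of 5 of 62 members lay below 0 (Atp5j, Atp5j2, Cox5a, Cox7a2 and Cox7c), where 2.41% of 5272 genes did and 2.09% lay above. With the scaling by the 69 genes none lay below 0 and that of Ndufb11 lay above, and without the ribosomal RNA genes and Gm12374 those of Atp5j and Cox7c alone lay below. This comparison uses the same colon control library as the last, and each carries that library's content.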

How the data were processed

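The deposited tables hold whole-number counts per gene and barcode column, and no sample column was left unused (0 columns). FastQC, STAR 2.5.1a and mm10 are named per the submitters' processing notes. Per the labels' protocols, RNA was captured with an oligo-dT probe whose sample barcode has 7 bases and whose molecular identifier has 8. The step from reads to counts is not given here by any source used. A pooled barcode sheet was not used.

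From the counts, column patterns shared by several genes were recovered, and non-negative least squares fitted every gene with them, exactly for 92.6%, 93.3%, 92.6% and 96.7% of genes (colon control, colon light, lymph node control, lymph node light). The exactly fitted genes hold 42.5%, 39.0%, 55.9% and 62.9% of counts. The number of columns per molecule was taken from them and applied to all genes. The size-weighted patterns span 70.2, 49.9, 84.4 and 50.4 columns. A last line without a gene name in both lymph node tables, 50.0% of their counts, was left out. Foxp3 was left out of all tables, and Cd3d, Cd3e, Cd3g and Cd4 of the colon control, because their lines repeat by position between tables. No member was affected. A result on part of complex I is not reported here.

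Ratios used a prior count of 0.5, intervals were Clopper-Pearson at 95% on molecule-equivalents, and the filter was 20 molecule-equivalents over the libraries compared. Differences of ratios had normal intervals on the log scale. With 1 library per group there was no test between conditions, and nothing says how many animals a library holds. Intervals were also run on simulated data, but with the unweighted mean number of columns per molecule in place of the weighted one. That run therefore did not test the intervals reported here. GENCODE M21 matched 74 of 76 members by name. Members named with values in every library had at least 20 molecule-equivalents over the 4 libraries, or an interval that left out 0 in the lymph node light comparison or between the light libraries, except Ndufb11, named after its values were seen. Members and lists were chosen with earlier results of these data known. Python 3.11.15, numpy 2.4.6, scipy 1.17.1 and pandas 2.3.3 were used.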

Additional observations from a re-analysis of the deposited data

Results flagged for a closer look

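The log2 ratio of light to control differed between the tissues beyond counting error: colon minus lymph node was 2.00 (1.30 to 2.70) over all members, 1.33 (0.21 to 2.46) for complex I, 2.80 (1.38 to 4.23) for complex IV and 2.34 (0.94 to 3.75) for complex V. These values were picked out because the same contrast gave different ratios in the colon and the lymph node. With 1 library per group the difference was not tested against replicate spread. For all members it was -0.014 (-0.71 to 0.69) when the libraries were scaled by the median ratio of genes with at least 20 molecule-equivalents and 2.85 with that of all genes counted in both, and the colon control library enters all 4 values.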

How the results depend on the processing

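Of 38 alternative values for the summed ratios, 26 stayed within the interval of the reported value, 10 left it and 2 turned direction from a value whose interval excluded 0. The members' ratio in the lymph node, which turned from -0.20 to 0.28, is counted among the 10 because its reported interval included 0. Of 14 for the counts past 2-fold, 3 were within 1.5 times the reported count. The scaling mattered most. The median ratio of genes counted in both libraries shifted every log2 ratio by 0.48 in the lymph node, 1.34 in the colon, 0.54 between the light libraries and -0.07 between the controls, and that of genes with at least 20 molecule-equivalents, chosen after seeing the data like every alternative for complexes and other lists, by 0.16, -1.85, 0.35 and 2.51. With the first, the members stood at 0.28 in the lymph node, 3.14 in the colon and -0.14 between the light libraries, the difference of the light ratios was 2.85, complex IV between the light libraries was 0.019, and the cytosolic ribosomal proteins were 0.20 in the lymph node and 0.29 between the light libraries. With the second, the members stood at -0.052 in the colon, -0.34 between the light libraries and -0.16 between the controls, and the difference was -0.014. Complex I then stood at -0.63 in the colon and 0.37 between the controls, the mitochondrially encoded subunits at 0.41 between the controls and the cytosolic ribosomal proteins at 0.092 between the light libraries. Without ribosomal RNA the members stood at -0.31 between the light libraries and the cytosolic ribosomal proteins at 0.12. Counting each recovered molecule once gave -0.37 there, and the median over members past the filter -0.65 in the lymph node and 2.97 in the colon. The counts past 2-fold were 4 (2 higher, 2 lower) in the lymph node, 10 in the colon, 12 (1 higher, 11 lower) between the light libraries and 5 between the controls with a filter of 10 molecule-equivalents, and 27, 54, 36 and 53 with none. Between the light libraries the count was 0 and 1 with the first and second scaling, and in the colon 1 with the second. No member between the controls passed the filter, so no median or scaled count was given there. Taking the deposited sums as raw counts leaves ratios in place and narrows intervals. No paired analysis was possible because each group has 1 library. Depth limits single members: 0 passed the floor in the colon control.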
